A study of Mus musculus with 55 samples.

Results

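The 10 predicted mouse genes described here carry near-identical copies of mitochondrial genes in the nuclear genome, and were followed through 52 single-oocyte RNA-seq libraries. They are Gm29216, Gm28661, Gm10925, Gm28437, Gm28438, Gm10222 and Gm28439 on chromosome 1, Gm13340 and Gm13339 on chromosome 2, and Gm4076 on chromosome 13, that is 10 of the 51734 genes in the count tables. They were chosen by their measured levels in this series by genotype, wild-type library set and stage and by their covariation, so these differences are given as descriptions with no p-value. Where the number of them past a threshold is given, it stands beside the share of all genes past it, and nothing is read from it. All 10 had enough counts to enter every fit, with 200 counts (Gm28438) as the lowest value of any of them in any library.

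Single oocytes were the input of each library (SMART-Seq HT). Fully grown oocytes (FGOs) came from adult ovaries of females 10 to 12 weeks old in 4 genotypes: 18 wild type, 8 Dnmt3a+/+Dnmt3LD124A/D124A (here DNMT3L-ADD), 8 Dnmt3aADA/ADADnmt3L+/+ (DNMT3A-ADD) and 8 Dnmt3aADA/ADA + Dnmt3LD124A/D124A (DNMT3A+DNMT3L-ADD). A further group held 10 wild-type oocytes at metaphase II (MII), the stage reached after meiotic maturation. FGOs were taken by puncture of ovaries and freed of cumulus cells by washing. For its fertilization experiment the study took MII oocytes from the oviducts of adult females injected with inhibin antiserum and human chorionic gonadotropin, and whether the sequenced ones came the same way is not stated. Stage, hormone treatment and collection therefore cannot be told apart. The mutations are germline and homozygous, so every cell of the mutant females carried them. How many females gave the oocytes of a group is not stated, and oocytes may share an animal. Test results therefore measure the spread between oocytes.

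DNMT3A is a de novo DNA methyltransferase, and DNMT3L is its catalytically inactive partner. Both read unmodified histone H3 tails through an ADD domain, and together they methylate the growing oocyte's genome. Mitochondria keep a small circular genome that encodes subunits of the respiratory chain: subunits of complex I (the mt-Nd genes), of cytochrome c oxidase or complex IV (mt-Co1, mt-Co2, mt-Co3), cytochrome b of complex III (mt-Cytb) and subunits of ATP synthase (mt-Atp6, mt-Atp8). The oocyte holds a very large store of mitochondria and passes it to the embryo. Over evolution, pieces of mitochondrial DNA have been inserted into nuclear chromosomes, where they persist as pseudogenes. A short read from a mitochondrial transcript can match such a pseudogene as well as its true source.

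The 37 genes of the mitochondrial genome in these tables (13 protein genes, 2 ribosomal RNA genes and 22 transfer RNA genes) were listed at 0 in all 52 libraries. Reads of mitochondrial RNA and reads of the nuclear copies therefore cannot be told apart in these counts, and a level below is the level of whatever was counted at the copy. How reads with several positions were counted is not given in the sources used here, nor is the strand setting.

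The sequences show how far each copy could be distinguished. All 10 genes were matched in the GENCODE vM21 transcripts of GRCm38, the assembly also called mm10. Gm4076 has 965 bases in that release and 516 as counted here, and only the 516 were compared. On chromosome 1 the 7 genes lie on the minus strand in a block of 4663 bases (chr1:24611535-24616197) in the order of the mitochondrial genome. Between neighbours the gaps were of 140, 233, 2 and 69 bases, equal to those between the matched mitochondrial stretches. The gap between Gm28438 and Gm10222 was 74 bases against 73, and Gm10222 and Gm28439 overlap by a few bases at their ends, as mt-Nd4l and mt-Nd4 do. All are annotated as unprocessed pseudogenes except Gm4076, a processed pseudogene.

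**Figure D1:**
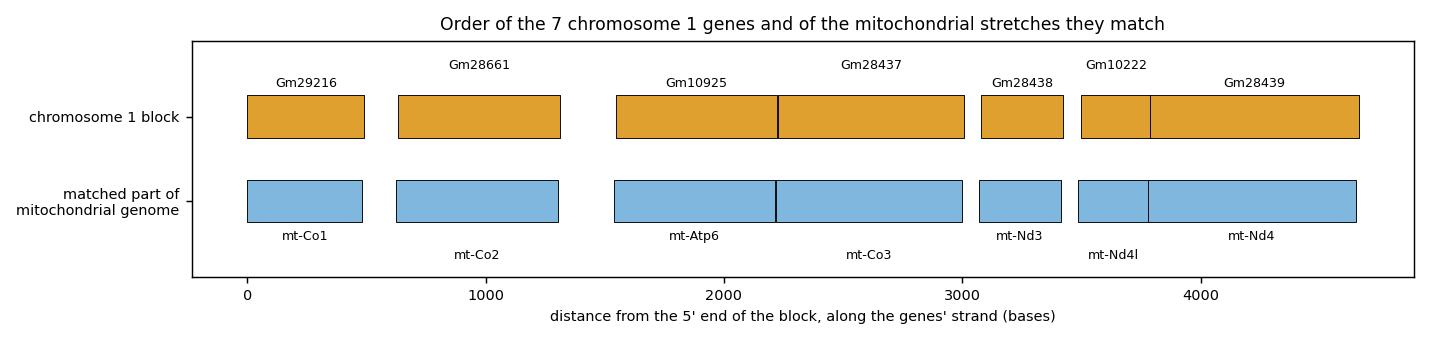
Positions of the 7 chromosome 1 genes (upper bars) and of the mitochondrial stretches they match (lower bars), in bases from the 5′ end of the block along the genes' strand. Bars and gaps run in the same order over the 4663 bases, from Gm29216 to Gm28439.

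Of the 10 copies, 5 had no mismatch to their mitochondrial gene over their whole length. They are Gm28661 (mt-Co2, 681 bases), Gm10925 (mt-Atp6, 678 bases), Gm28437 (mt-Co3, 783 bases), Gm10222 (mt-Nd4l, 294 bases) and Gm28439 (the first 876 bases of mt-Nd4). Gm10925 is shown as an example of these, since its first 60 bases are also those of mt-Atp6:
Gm10925 (chr1:24614592-24614651, minus strand): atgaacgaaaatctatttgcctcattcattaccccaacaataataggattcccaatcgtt

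Gm28438 (mt-Nd3) and Gm29216 (the 3′ part of mt-Co1) each had 1 mismatch, for Gm29216 over the 483 of its 492 bases that aligned. The mismatch of Gm28438 lies near the start of the gene. It is in capitals here and is the one base by which its reads could be assigned:
Gm28438 (chr1:24613060-24613119, minus strand): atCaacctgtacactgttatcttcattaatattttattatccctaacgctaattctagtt
mt-Nd3 (chrM:9459-9518, plus strand): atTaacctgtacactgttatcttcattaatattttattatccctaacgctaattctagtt

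The other 3 copies had diverged further. Gm13340 spans all of mt-Co1 with 37 mismatches in 1545 bases (97.6% identity), Gm13339 covers 510 bases of mt-Nd2 with 17 mismatches (96.7%), and Gm4076 covers 516 bases of mt-Nd5 with 24 mismatches (95.3%). The 60-base stretch of each with most mismatches is printed beside its mitochondrial counterpart, again with the differing bases in capitals:
Gm13340 (chr2:22589129-22589188, minus strand): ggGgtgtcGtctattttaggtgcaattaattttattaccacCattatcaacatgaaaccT
mt-Co1 (chrM:5787-5846, plus strand): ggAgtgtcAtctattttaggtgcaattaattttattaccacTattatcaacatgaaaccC
Gm13339 (chr2:22590336-22590395, minus strand): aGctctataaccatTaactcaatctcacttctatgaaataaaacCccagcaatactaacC
mt-Nd2 (chrM:4580-4639, plus strand): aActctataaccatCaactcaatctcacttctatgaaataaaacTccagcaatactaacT
Gm4076 (chr13:85127260-85127319, minus strand): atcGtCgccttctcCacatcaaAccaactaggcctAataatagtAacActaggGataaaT
mt-Nd5 (chrM:12642-12701, plus strand): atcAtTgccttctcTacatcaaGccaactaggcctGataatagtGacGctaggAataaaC

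The study's methods give the read length both as 53 nucleotides and as 100 bases. For Gm4076, 10.1% of all 53-base windows were identical to a mitochondrial transcript, and 0 of its 100-base windows were. The shares of identical windows at 53 and 100 bases were 25.7% and 5.53% for Gm13340 and 16.8% and 7.30% for Gm13339. Windows of the 5 copies without a mismatch were identical in 100% of cases at both lengths. Gm13340 and Gm29216 both copy mt-Co1 and share 483 aligned bases at 97.1% identity, so a read of one may be counted on the other.

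Levels are given as CPM, counts per 1000000 of the library total, a share of the library and not an absolute amount of RNA. Library totals lay between 7832458 and 23739871 counts. The 10 genes together took 0.102% to 0.567% of the counts of a library, and the 95% Wilson interval of this share was nowhere wider than 1.93% of its value to either side, which covers counting error only. By level per kilobase of gene in wild-type FGOs, Gm10925 was highest with a median of 786 CPM per kilobase, followed by Gm29216 with 578 and Gm13340 with 465. The lowest were Gm4076 with 209 and Gm28438 with 156 CPM per kilobase.

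A pair of libraries stood apart for these genes. Wild-type FGO replicate 3 had the highest CPM of the 18 wild-type FGOs in 10 of 10 genes, and MII replicate 5 had the highest of the 10 MII oocytes in 10 of 10. Without wild-type replicate 3, the log2 fold changes given below that moved by over 1.5 times were those of Gm4076 and Gm28439 between the wild-type sets (0.20 to −0.06 and 0.57 to 0.35), of Gm10222, Gm13339 and Gm28438 in the double mutant (−0.31 to −0.18, −0.38 to −0.24 and −0.23 to −0.13) and of Gm28437 in MII oocytes (0.11 to 0.20). Without MII replicate 5 the last was 0.08.

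The 18 wild-type FGOs fell into 2 sets by replicate number, 1 to 8 and 9 to 18, and these differed in the 10 genes. Their summed share was 0.366% ± 0.072 (SD, n = 8) in replicates 1 to 8 and 0.246% ± 0.018 (SD, n = 10) in replicates 9 to 18, with no overlap between 0.305% to 0.529% and 0.212% to 0.267%. For Gm13339, a copy of the complex I gene mt-Nd2, the lowest, median and highest levels were 227, 269 and 549 CPM in replicates 1 to 8, against 122, 150 and 172 CPM in replicates 9 to 18. The sets did not overlap, and the log2 fold change was 0.99 ± 0.14 (SE). Gm28437, the copy of the complex IV gene mt-Co3, had 281, 319 and 466.1 CPM against 125, 186 and 216 CPM, again without overlap, with a log2 fold change of 0.86 ± 0.12. Gm4076 had 80.0, 105 and 268 CPM in replicates 1 to 8 and 91.4, 113 and 138 CPM in replicates 9 to 18. Its 2 sets overlapped throughout, its log2 fold change was 0.20 ± 0.19, and without wild-type replicate 3 it was −0.06.

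In 6 of the 10 genes all of replicates 1 to 8 lay above all of replicates 9 to 18 (Gm10222, Gm10925, Gm13339, Gm13340, Gm28437 and Gm29216), as did 1.58% of all genes tested. None of the 10 passed an adjusted p of 0.05 with a fold over 2 (edgeR; 3.06% of all genes were called higher). At an unadjusted p under 0.05 there were 9 of the 10, beside 5597 of all 14664 genes tested. DESeq2 called 0 of the 10, beside 435 genes called higher. The median log2 fold change was 0.52 over the 10 genes (0.37 without replicate 3) and 0.04 over all genes. What separated the oocytes or libraries of these sets is not given by the labels. The summed level of 5 stroma and smooth muscle markers was 236 to 315 CPM in replicates 1 to 8 and 326 to 436 CPM in replicates 9 to 18, of which Myh11 made up 99.0% and 98.5%. Granulosa and cumulus markers summed to 56.2 to 151 CPM and 53.8 to 231 CPM. The part of either in the difference was not tested.

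**Figure D2:**
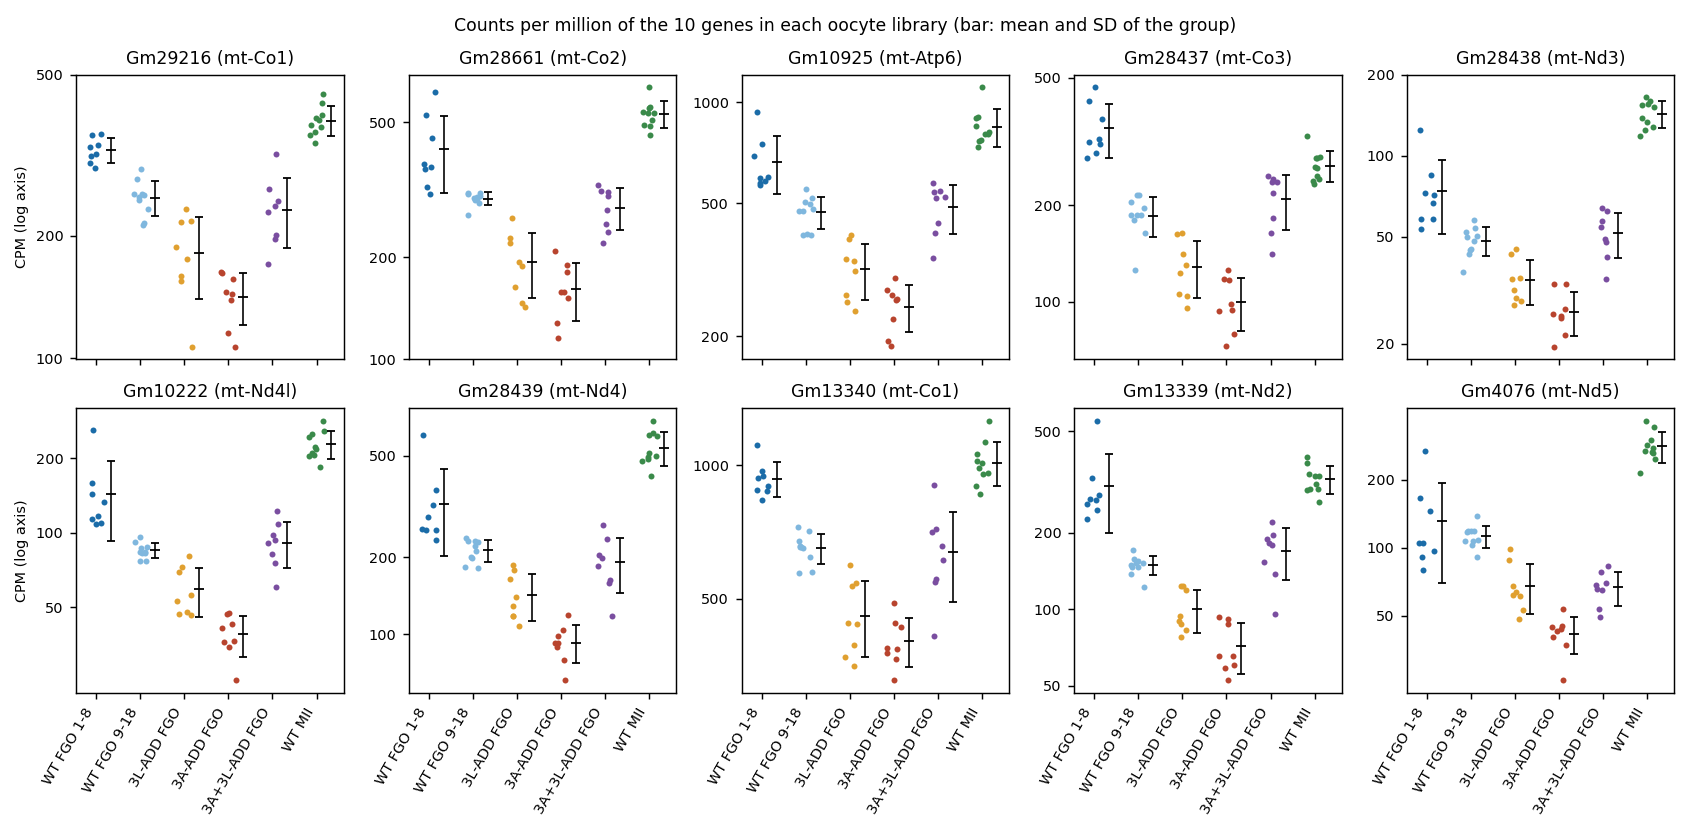
CPM (log axis) of each gene in each of the 52 oocyte libraries, in 6 columns: wild-type FGO replicates 1 to 8 and 9 to 18, the 3 mutant FGO groups and wild-type MII. Points are libraries and bars the mean and SD; DNMT3A-ADD FGOs (8 points) lie below all wild-type FGOs in all 10 genes, and MII oocytes lie above wild-type replicates 9 to 18 in all 10.

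The mutations are substitutions in the ADD domains, so counts of the mutated genes do not check the genotype labels. Dnmt3a had 303 ± 28.3 CPM (SD, n = 18) in wild-type, 324 ± 25.3 in DNMT3L-ADD, 318 ± 17.8 in DNMT3A-ADD and 315 ± 23.8 in DNMT3A+DNMT3L-ADD FGOs (n = 8 each). Dnmt3l had 122 ± 20.2, 137 ± 15.98, 127 ± 6.35 and 119 ± 17.5 CPM. Within the wild type, Dnmt3l had 103 ± 10.7 CPM in replicates 1 to 8 and 138 ± 8.10 CPM in replicates 9 to 18. All 9 oocyte markers, such as Zp3 and Gdf9, were present in every group.

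DNMT3A-ADD FGOs had the lowest levels. Their summed share was 0.132% ± 0.019 (SD, n = 8), with 0.102% in the lowest and 0.161% in the highest library, below the 0.212% of the lowest wild-type FGO. All 10 genes lay below all 18 wild-type FGOs in each of the 8 mutant libraries, as did 0.248% of all genes tested. Gm13340, the full copy of mt-Co1, had a lowest, median and highest level of 328, 386 and 489 CPM, against 572, 719 and 1110 CPM in wild-type FGOs, and a log2 fold change of −0.91 ± 0.11 (SE). For Gm10925, the copy of the ATP synthase gene mt-Atp6, these levels were 187, 258 and 298 CPM against 402, 533 and 938 CPM, with a log2 fold change of −1.14 ± 0.12. The copies of complex I genes had log2 fold changes from −1.14 ± 0.15 (Gm28438) to −1.55 ± 0.20 (Gm13339), with −1.48 ± 0.17 for Gm10222, −1.46 ± 0.16 for Gm28439 and −1.51 ± 0.16 for Gm4076. The other copies of complex IV genes had −0.96 ± 0.11 (Gm29216), −1.08 ± 0.13 (Gm28661) and −1.33 ± 0.17 (Gm28437). Gm4076 had 26.0, 43.4 and 53.3 CPM in the mutant and 80.0, 108 and 268 CPM in wild-type FGOs.

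With the study's thresholds, 8 of the 10 were called lower in DNMT3A-ADD FGOs, beside 1.76% of all genes. The direction was the same in 10 of 10 genes against either wild-type set, and the size depended on the set: the median log2 fold change over the 10 was −1.24 against all 18, −1.53 against replicates 1 to 8 and −0.90 against replicates 9 to 18. In these last comparisons 10 and 4 of the 10 were called lower, beside 4.85% and 0.971% of all genes. The 8 libraries overlapped with wild-type FGOs in the summed level of granulosa and cumulus markers (42.7 to 110 CPM against 53.8 to 231 CPM) and of stroma and smooth muscle markers (324 to 439 CPM against 236 to 436 CPM). Their granulosa and cumulus sum was 66.2 ± 25.3 CPM against 93.2 ± 43.1 CPM in wild-type FGOs, with 4 of 11 tested markers called lower and 1 higher, and of the 5 stroma and smooth muscle markers 1 was called each way. The marker Cyp19a1 made up 42.8% of the granulosa and cumulus sum in these libraries and 26.8% in wild-type FGOs. The part of these markers was not tested.

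DNMT3L-ADD FGOs were lower than wild-type FGOs in all 10 genes, less so than DNMT3A-ADD FGOs in each. Their summed share was 0.168% ± 0.033 (SD, n = 8), from 0.131% to 0.218%. Gm28661, the copy of mt-Co2, had 143, 191 and 262 CPM as lowest, median and highest, against 267, 309 and 615 CPM, with a log2 fold change of −0.83 ± 0.13 (SE). It was the 1 gene of the 10 whose mutant and wild-type ranges did not overlap, as in 0.0699% of all genes. Gm13339 had 77.7, 92.0 and 123.8 CPM against 122, 165 and 549 CPM. Its ranges overlapped by 2 mutant libraries, and its log2 fold change was −1.09 ± 0.19. The other 8 ranged from −0.61 (Gm29216) to −0.98 (Gm28437).

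At the study's thresholds 1 of 10 was called (Gm13339), beside 0.591% of all genes called lower. Without wild-type replicate 3 it was 0 of 10 (0.636% of all genes). There 10 of 10 had an unadjusted p under 0.05, beside 3618 of all 15719 genes tested. Against wild-type replicates 1 to 8 the number called was 7 (3.78% of all genes), with a median log2 fold change of −1.05. Against replicates 9 to 18 it was 0 (0.404% of all genes), with a median of −0.54. In that comparison 10 of 10 had an unadjusted p under 0.05, beside 3157 of all 15338 genes tested. Against each set all 10 were lower. The granulosa and cumulus sum was 44.1 to 95.9 CPM in these libraries (60.8 ± 16.6 against 93.2 ± 43.1 CPM in wild-type FGOs), and 3 of 11 tested markers were called lower. Cyp19a1 made up 45.8% of the sum in these libraries. The part of these markers was not tested.

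DNMT3A+DNMT3L-ADD FGOs, which carry both mutations, had higher median levels than either single mutant. Their summed share was 0.241% ± 0.045 (SD, n = 8), from 0.164% to 0.308%, with 3 of 8 libraries below the lowest wild-type FGO and 5 inside the wild-type range. The median CPM was 1.54 to 2.75 times that of DNMT3A-ADD FGOs in the 10 genes, and in 7 of them all 8 double-mutant libraries lay above all 8 DNMT3A-ADD libraries, as in 2.71% of all genes. Against DNMT3L-ADD FGOs it was 1.06 to 1.96 times as high, with overlapping ranges in all 10 (1.94% of all genes lay above without overlap). The lowest ratio was that of Gm4076, whose mean was 66.7 ± 11.3 CPM in the double mutant and 67.9 ± 17.02 CPM in DNMT3L-ADD FGOs. Replicate 6 was the lowest double-mutant library in 10 of 10 genes.

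The comparison of double-mutant with wild-type FGOs turned on the wild-type set. Gm10222, the copy of mt-Nd4l, had 60.3, 92.3 and 122 CPM, against 109, 125 and 262 CPM in wild-type replicates 1 to 8 and 76.9, 83.7 and 96.2 CPM in replicates 9 to 18. Its log2 fold change was −0.31 ± 0.16 against all 18 (−0.18 without wild-type replicate 3), −0.66 ± 0.17 against the first set and 0.06 ± 0.11 against the second. Over the 10 genes the median was −0.32 against all, −0.62 against replicates 1 to 8 with 10 of 10 lower, and −0.03 against replicates 9 to 18 with 5 of 10 lower. None was called with a fold over 2 in any of the 3 (edgeR). Of all genes, 1.48% were called lower against all 18, 102 of 15173 against replicates 1 to 8 and 322 of 15338 against replicates 9 to 18. Against all 18, 6 of 10 had an unadjusted p under 0.05, beside 4563 of all 15726 genes tested. Without wild-type replicate 3 it was 5 of 10, beside 4454 of 15719. Against replicates 1 to 8 it was 10 of 10, beside 1777 of 15173, and against replicates 9 to 18 it was 1 of 10, beside 7045 of 15338. DESeq2 called 0 of 10 against all 18, beside 287 of 15726 genes called lower.

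Against replicates 1 to 8, all double-mutant libraries lay below all wild-type libraries in 2 of 10 genes, Gm13339 and Gm28437, as did 0.515% of all genes.

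Gm4076 was the exception. Its 8 double-mutant libraries had 49.3, 66.9 and 83.3 CPM as lowest, median and highest, all below the 10 wild-type replicates 9 to 18 (91.4 to 138 CPM). It was the 1 gene of the 10 without overlap there, as were 3.23% of all genes. The log2 fold change was −0.89 ± 0.16 against all 18, −0.99 ± 0.20 against replicates 1 to 8 and −0.80 ± 0.12 against replicates 9 to 18. In the double mutant the granulosa and cumulus markers summed to 19.9 to 41.4 CPM, below every wild-type FGO. Beside 1.48% of all genes called lower, 8 of the 11 tested markers were called lower and 1 higher. Cyp19a1 made up 67.7% of the sum in these libraries. Stroma and smooth muscle markers summed to 219 to 298 CPM. The part of either was not tested.

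**Figure D3:**
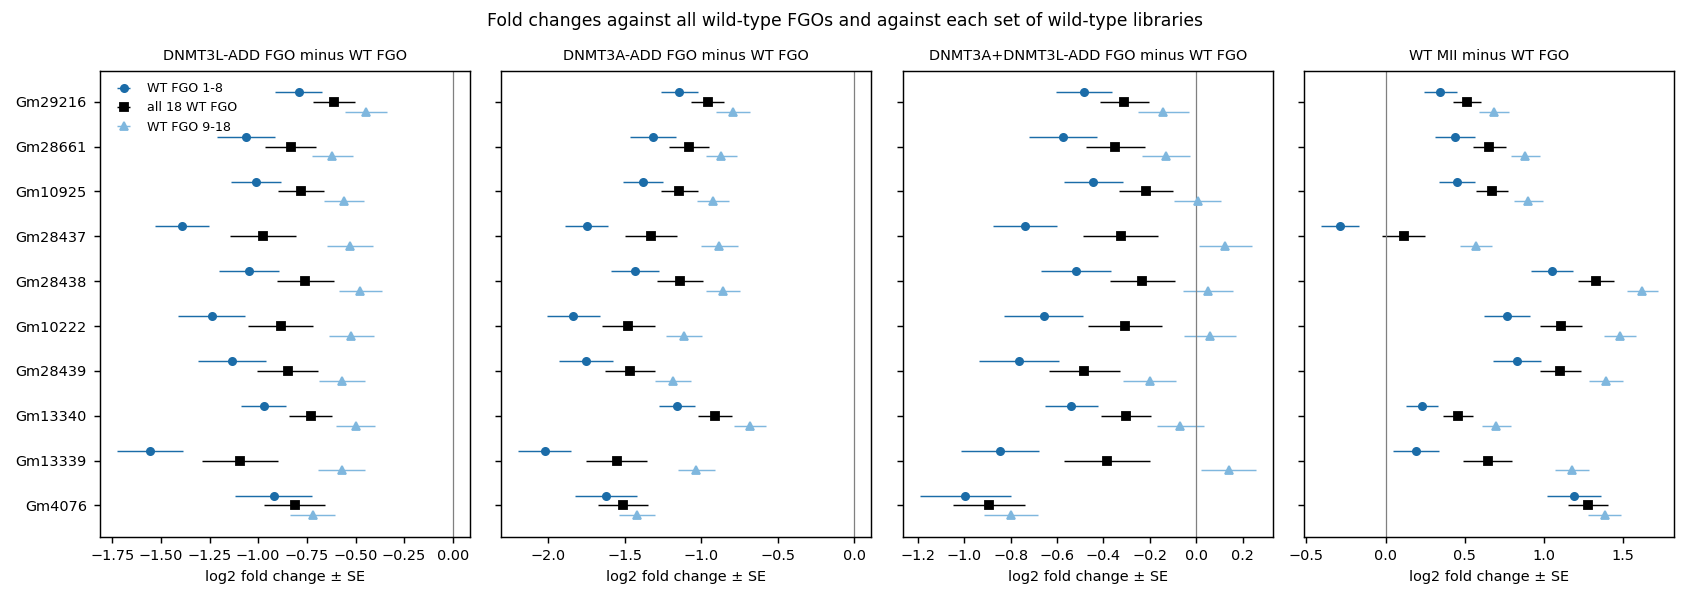
Log2 fold change with its SE (horizontal axis) of each gene (rows) for the 3 mutant groups and for MII oocytes, against all 18 wild-type FGOs (squares), replicates 1 to 8 (circles) and replicates 9 to 18 (triangles). Circles lie left of triangles in every panel, and in the double mutant 5 triangles lie right of 0 while Gm4076 stays near −0.80.

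MII oocytes had the highest summed share, 0.455% ± 0.051 (SD, n = 10), from 0.402% to 0.567%. The mean was 1.52 times that of the 18 wild-type FGOs (0.299% ± 0.078), a difference of 0.156 percentage points. It was 1.24 times that of wild-type replicates 1 to 8, 1.85 times that of replicates 9 to 18 and 1.59 times that of the wild-type FGOs without replicate 3. All 10 MII oocytes lay above all of replicates 9 to 18, and 1 of 10 lay above wild-type replicate 3. The same wild-type FGOs serve in the comparisons with mutants.

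At the thresholds used for the mutants, 4 of the 10 genes were called higher in MII oocytes, beside 0.196% of all genes. The 4 are copies of complex I genes. Gm28438 (mt-Nd3) had 118, 145 and 165 CPM as its lowest, median and highest MII level, against 37.1, 53.8 and 124.3 CPM in wild-type FGOs, with a log2 fold change of 1.33 ± 0.12 (SE). The MII and FGO ranges overlapped only at wild-type replicate 3. Gm4076 (mt-Nd5) had 215, 272 and 365 CPM against 80.0, 108 and 268 CPM and a log2 fold change of 1.28 ± 0.13. That of Gm10222 (mt-Nd4l) was 1.11 ± 0.13 and that of Gm28439 (mt-Nd4) 1.10 ± 0.13.

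The copies of complex IV and ATP synthase genes had smaller log2 fold changes. They were 0.67 ± 0.10 for Gm10925 (mt-Atp6), 0.66 ± 0.11 for Gm28661 (mt-Co2), and 0.51 ± 0.09 and 0.46 ± 0.09 for Gm29216 and Gm13340, the copies of mt-Co1. Gm13339, the copy of the complex I gene mt-Nd2, had 0.64 ± 0.15. Against replicates 1 to 8 alone, Gm13340 and Gm13339 had 0.23 ± 0.10 and 0.19 ± 0.14.

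The direction of Gm28437 (mt-Co3) depended on the wild-type set. Its MII levels of 234, 262 and 329 CPM lay between those of wild-type replicates 9 to 18 (125, 186 and 216 CPM) and of replicates 1 to 8 (281, 319 and 466.1 CPM), and overlapped only with the latter. The log2 fold change was 0.11 ± 0.14 against all 18, −0.29 ± 0.12 against replicates 1 to 8 and 0.57 ± 0.10 against replicates 9 to 18.

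All 10 genes in the 10 MII oocytes lay above all of wild-type replicates 9 to 18, as did 0.893% of all genes. Against all 18 wild-type FGOs none of the 10 was free of overlap (0.336% of all genes were). Only wild-type replicate 3 reached the MII range in Gm10222, Gm28438, Gm28439 and Gm4076, and replicates 2 and 3 did in Gm10925, Gm28661 and Gm29216. In Gm13339, Gm13340 and Gm28437, 5, 7 and 8 of wild-type replicates 1 to 8 did. With the second set alone 5 were called higher, beside 0.137% of all genes, and with the first set alone 2 (Gm28438 and Gm4076), beside 1.01%. The median log2 fold change was 0.66 over the 10 genes and −0.05 over all genes. Granulosa and cumulus markers summed to 24.6 to 56.7 CPM in MII oocytes and 53.8 to 231 CPM in wild-type FGOs. Beside 1421 of all 15784 genes called lower, 8 of the 11 tested markers were called lower and 0 higher. Among them the inhibin subunit gene Inha fell, with a log2 fold change of −6.02 ± 0.49, as did Aldh1a1 with −4.83 ± 0.49 and the steroid enzyme gene Hsd3b1 with −3.33 ± 0.43 (adjusted p = 6.6e-15, 1.28e-11 and 1.19e-08), and Amh was at 0 in all 10 MII libraries. Of the 9 oocyte markers, the zona pellucida genes Zp3 and Zp2 were called lower, by −1.96 ± 0.07 and −1.47 ± 0.10 (adjusted p = 4.79e-29 and 1.96e-18). The part of these changes in the difference was not tested.

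The ratios among the 10 genes were not fixed. As a share of their summed count, Gm4076 took 6.19% ± 0.39 (SD, n = 10) in MII oocytes, 4.58% ± 0.34 in wild-type replicates 9 to 18 and 2.79% ± 0.35 in DNMT3A+DNMT3L-ADD FGOs (n = 8), without overlap between these groups. In wild-type replicates 1 to 8 Gm4076 took 3.49% ± 0.96, from 2.62% to 5.06%. That range overlapped with replicates 9 to 18 (4.13% to 5.16%) and with the double mutant (2.07% to 3.17%). Gm28439 took 11.8% ± 0.77 in MII oocytes and 8.62% ± 0.86 in the 18 wild-type FGOs. Gm28437 moved the other way, from 8.42% ± 1.22 in wild-type FGOs to 5.84% ± 0.17 in MII oocytes. Gm13340, the largest by count, took 30.5% ± 1.51 in DNMT3A-ADD FGOs, 26.2% ± 1.83 in wild-type FGOs and 22.3% ± 0.935 in MII oocytes. Gm28661 and Gm10925 varied little between the 5 groups, from 11.5% to 12.2% and from 18.5% to 20.2%. These shares are descriptions and were not tested.

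**Figure D4:**
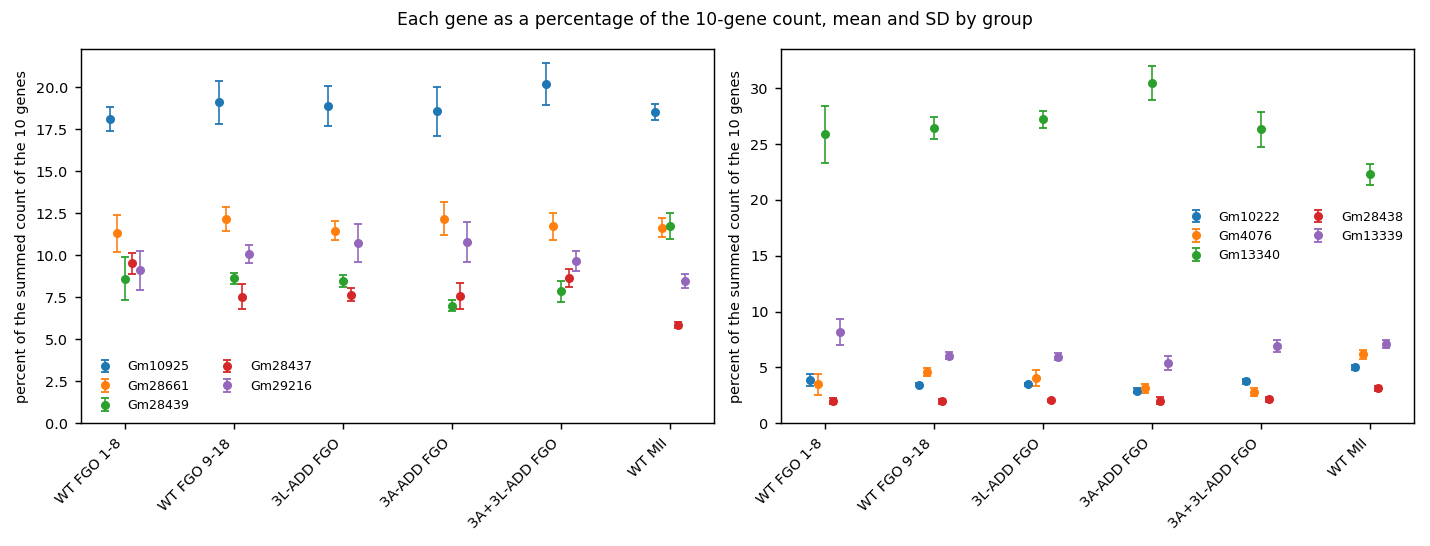
Each gene's count as a percentage of the summed count of the 10 genes (vertical axis, from 0), mean and SD for the 2 wild-type FGO sets, 3 mutant FGO groups and MII oocytes. Gm28439, Gm10222, Gm28438 and Gm4076 take their largest shares in MII oocytes, where Gm13340 and Gm28437 take their smallest.

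Ratios within a library showed the same shifts without reference to the total. Per count of Gm10925, Gm4076 had 0.334 ± 0.023 counts in MII oocytes, 0.242 ± 0.031 in wild-type replicates 9 to 18 and 0.139 ± 0.019 in DNMT3A+DNMT3L-ADD FGOs. In wild-type replicates 1 to 8 it had 0.194 ± 0.059 counts. Their range of 0.142 to 0.289 overlapped with that of the double mutant (0.0994 to 0.161). The ratio of Gm28437 to Gm10925, neighbours in the block that are both identical to mitochondrial genes, was 0.526 ± 0.031 in wild-type replicates 1 to 8, 0.396 ± 0.042 in replicates 9 to 18 and 0.316 ± 0.011 in MII oocytes. By contrast, the ratio of Gm29216 to Gm13340, the 2 copies of mt-Co1, had means between 0.353 and 0.395 in the 5 groups. Gm10222 and Gm28439, which overlap at their ends, had a mean ratio between 0.414 and 0.427 in 4 of the groups and of 0.482 ± 0.023 in the double mutant. That ratio also differed between the wild-type sets, at 0.447 ± 0.013 in replicates 1 to 8 and 0.402 ± 0.020 in replicates 9 to 18.

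Within groups most pairs of the 10 genes rose and fell together from oocyte to oocyte. After the mean of each group was subtracted from log2 CPM, the 45 pairs of genes had a median Pearson r of 0.84 and a median Spearman rho of 0.82 across the 42 FGOs, with r from 0.48 (Gm28437 with Gm4076) to 0.97 (Gm10222 with Gm28439). Pairs on chromosome 1 had a median r of 0.85 (21 pairs) and pairs on different chromosomes 0.81 (23 pairs). In this pooled set Gm4076 followed the others least, with a median r of 0.58. For Gm4076 this median was 0.68 with the wild-type set means also subtracted and 0.43 without wild-type replicate 3. It was 0.91 within MII oocytes, 0.84 within wild-type replicates 1 to 8 and 0.53 within replicates 9 to 18. These correlations are descriptions: the points are libraries that share their depth and composition, and part of the spread is that between wild-type sets.

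With the mean of each wild-type set subtracted as well, the median r was 0.79, and without wild-type replicate 3 it was 0.80 (lowest pair 0.33). Within single groups it was 0.86 in wild-type FGOs, 0.90 in DNMT3L-ADD, 0.71 in DNMT3A-ADD, 0.87 in DNMT3A+DNMT3L-ADD and 0.85 in MII oocytes. Within wild-type replicates 9 to 18 it was 0.62. The lowest pairs were near 0 in DNMT3A-ADD FGOs (0.03, Gm28438 with Gm29216) and in replicates 9 to 18 (0.02, Gm28438 with Gm28661). Across the 42 FGOs, with group means subtracted, the log2 summed share had r = −0.22 with the library total, 0.08 with the summed granulosa and cumulus markers, 0.27 with the oocyte markers and −0.54 with the stroma and smooth muscle markers, which are nearly all Myh11.

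**Figure D5:**
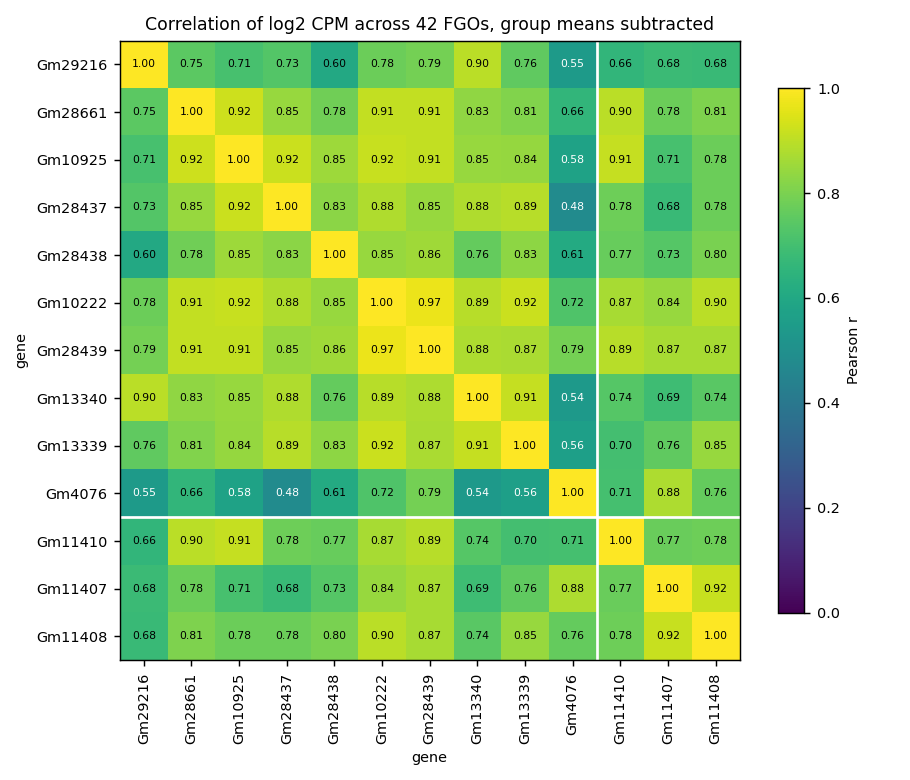
Pearson r of log2 CPM between genes across 42 FGOs, with the mean of each genotype subtracted, for the 10 genes and, past the white lines, 3 further copies of mitochondrial genes on chromosome 4. Most of the 45 pairs of the 10 lie above 0.80, and the row of Gm4076 is lower, with a median of 0.58.

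Of the 15774 other genes compared, those whose residuals followed the mean of the 10 most closely were 3 further nuclear copies. Gm11408 (a copy of mt-Nd6, the complex I gene read from the opposite mitochondrial strand) had r = 0.89, Gm11410 (mt-Cytb) 0.87 and Gm11407 (mt-Nd5) 0.85, over 42 FGOs. All 3 lie on chromosome 4 and match their mitochondrial gene at 93.6%, 92.9% and 92.4% identity. They were followed by Arl6ip1 with 0.71 and Tor1aip1, which encodes a nuclear membrane protein, with 0.71.

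The 3 copies on chromosome 4 had the same order of groups as most of the 10. Gm11410 had medians of 487 CPM in wild-type, 375 in DNMT3L-ADD, 268 in DNMT3A-ADD and 448 in DNMT3A+DNMT3L-ADD FGOs and 895 CPM in MII oocytes. Among the 10 genes, 8 had their medians in that order, from DNMT3A-ADD through DNMT3L-ADD, the double mutant and wild-type FGOs to MII oocytes. In the other 2, Gm13339 and Gm28437, the double mutant lay above the wild type. In MII oocytes Gm11407 rose by 1.04 ± 0.12 on the log2 scale, Gm11408 by 1.03 ± 0.13 and Gm11410 by 0.85 ± 0.11 (edgeR, adjusted p = 2.42e-10, 4.85e-09 and 2.59e-08). These 3 were picked for following the 10 in the same FGOs, so their p-values are no separate test of the 10. In DNMT3A-ADD FGOs their log2 fold changes were −0.95 ± 0.14, −1.12 ± 0.16 and −1.03 ± 0.14, given as a description.

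Further nuclear copies had counts at widely different levels. A search of the annotated transcripts found 6 unlisted genes that match a mitochondrial gene over at least 100 bases at 90% identity or more. Gm13341, a copy of mt-Co2 at 95.9% identity that lies next to Gm13340 on chromosome 2, had a median of 0.365 CPM in wild-type FGOs and at most 14 counts in any library. Gm28661, whose sequence is that of mt-Co2 itself, had 309 CPM there. Gm11410 at 92.9% identity had a median of 487 CPM in wild-type FGOs and Gm4076 at 95.3% had 108 CPM. What set these levels was not tested. Gm43743, a partial copy of mt-Atp6, had at most 4 counts, and Gm11512 (mt-Co1, 90.7%) had a median of 23.6 CPM.

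Nuclear genes for the upkeep and expression of mitochondrial DNA moved in both directions. Of 38 listed names, such as the mitochondrial RNA polymerase Polrmt and the packaging factor Tfam, 36 were in the tables and 35 were tested. In MII oocytes 8 (22.9%) rose and 10 (28.6%) fell at an adjusted p under 0.05, beside 16.5% and 22.6% of all genes, and with a fold over 2 none rose and 2 fell. Their median log2 fold change was −0.01, against −0.05 over all genes. The 2 were Hsd17b10, a subunit of mitochondrial RNase P (4.53 ± 2.04 CPM in wild-type FGOs and 2.01 ± 0.47 in MII oocytes; −1.09 ± 0.20, adjusted p = 2.39e-05), and Top1mt, the mitochondrial topoisomerase (1.11 ± 0.40 and 0.52 ± 0.48 CPM; −1.004 ± 0.31, adjusted p = 0.00901).

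At an adjusted p under 0.05, 3 of the 35 rose and 2 fell in DNMT3L-ADD FGOs (8.57% and 5.71%), beside 3.07% and 3.06% of all genes. In DNMT3A-ADD FGOs 5 rose and 2 fell (14.3% and 5.71%), beside 8.06% and 7.61%. In DNMT3A+DNMT3L-ADD FGOs 5 rose and 0 fell, beside 5.51% and 6.74%. The list had a median log2 fold change of 0.07 in each mutant. With a fold over 2 the counts were 0, 1 and 1, and the gene was Mterf2 in both DNMT3A-ADD and double-mutant FGOs, named here after its values were seen. It encodes a mitochondrial transcription termination factor family member and had 0.320 ± 0.271 CPM in wild-type, 1.01 ± 0.33 CPM in DNMT3A-ADD (log2 fold change 1.67 ± 0.38) and 0.831 ± 0.336 CPM in double-mutant FGOs (1.33 ± 0.39).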

How the data were processed

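The authors deposited raw counts per gene for 52 oocyte libraries, with STAR, HTSeq and the mm10 build named in the submitters' processing notes and featureCounts in the study's methods. Annotation release, multi-mapping and strand settings are not given in the sources used here. Both allelic tables for 3 embryos were not used.

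The test was edgeR's quasi-likelihood F test (edgeR 4.0.16 under R 4.3.3) after TMM scaling, on genes kept by filterByExpr (groups as design, minimum count 10). A gene was called at a Benjamini-Hochberg adjusted p under 0.05 and a fold over 2, the thresholds of the study. MII oocytes were compared in 1 fit of 52 libraries, mutants in 1 of 42 FGOs, wild-type sets in 1 of 18. A permutation test of the summed share and the p-values of the 10 genes were computed but are not printed, since the genes were chosen by these values. DESeq2 1.42.0 was an alternative, and others are given in the closing section. Scripts were tested on simulated data. Library totals lay between 7832458 and 23739871, and the biological coefficient of variation was 23.8% over 52 and 25.2% over 42 libraries. No 2 libraries of a group agreed within counting noise (lowest chi-square per degree of freedom 5.02).

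Correlations used log2 CPM with a prior count of 2. Copies were compared with blastn (word size 11).

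The members and lists were chosen with earlier results of these data known. Named genes were the 10, the 5 best correlated others, Dnmt3a, Dnmt3l and the 6 list members with the lowest p called in MII oocytes. Mitochondrial genes with 100 median counts would have been named, and none had them. Hsd17b10, Top1mt, Mterf2, Gm13341, Gm43743 and Gm11512 were named after their values were seen.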

Additional observations from a re-analysis of the deposited data

Results flagged for a closer look

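Within the groups of 8 to 10 oocytes, 44 sets of values (10 genes and their summed share, in 4 groups) were examined for a library far from the others, and 2 were found, where chance alone gives about 1 in 20. Both were in MII replicate 5, with 1106 CPM for Gm10925 (gap of 0.552 of the group's range) and 328.9 CPM for Gm28437 (0.478). Without that library the log2 fold change in MII oocytes was 0.62 for Gm10925 and 0.08 for Gm28437.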

How the results depend on the processing

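Genes called, of the 10 and of all, depended on the threshold and the wild-type set. In MII oocytes 4 of 10 were called, all higher, and 1452 in all, of which 31 were higher. With no minimum fold the numbers were 9 and 6170 (2610 higher). They were 2 and 1899 (155 higher) with wild-type replicates 1 to 8 and 5 and 809 (21 higher) with replicates 9 to 18. With no filter on low counts they were 4 and 4200 (166 higher). In DNMT3L-ADD FGOs (1, 103) they were 10 and 964 with no minimum fold and 7 and 615 with replicates 1 to 8. With replicates 9 to 18 they were 0 and 90, and without wild-type replicate 3 they were 0 and 111. In DNMT3A-ADD FGOs (8, 322) they were 2465 in all with no minimum fold, 791 with replicates 1 to 8, 4 of 10 and 250 in all with replicates 9 to 18, 682 in all with no filter, and 342 to 574 with 1 library left out (574 without DNMT3A-ADD replicate 4). In the double mutant (0, 260) they were 3 and 1926 with no minimum fold, 110 in all with replicates 1 to 8 and 821 with replicates 9 to 18. Between wild-type sets (0, 546) they were 9 and 3720 with no minimum fold and 1449 in all with no filter. With no filter the share of lower calls in DNMT3A-ADD FGOs was 46.8% in place of 85.7%, and in DNMT3L-ADD FGOs 63.0% in place of 90.3%. Against wild-type replicates 9 to 18 these were 59.6% and 68.9%, and 39.2% in place of 89.2% in the double mutant.

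Signs turned in the double mutant against replicates 9 to 18 (log2 fold changes of 0.0581 for Gm10222, 0.00602 for Gm10925, 0.14 for Gm13339, 0.12 for Gm28437 and 0.0516 for Gm28438), for Gm28437 in MII oocytes against replicates 1 to 8 (−0.29) and for Gm4076 between wild-type sets without replicate 3 (−0.0567). The causes were not tested. No value of the 10 changed its call under DESeq2, DESeq2 size factors or totals without these genes. The summed share was higher in MII oocytes by 0.0894 to 0.209 percentage points with either wild-type set alone or without wild-type replicate 3 (totals without mitochondrial genes are the same totals, since these are at 0), and the median correlation of pairs was 0.789 to 0.841 under 4.

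In 0 of 10 pairs of groups did every same-numbered pair of libraries correlate over 0.1. A pairing of only some numbers would also fail this rule, so it does not decide that question. Same-numbered pairs had medians between −0.11 and 0.046, and other pairs between −0.021 and 0.024. The highest single same-numbered value was 0.47, between a wild-type and a double-mutant FGO. With the replicate number as a block, on replicates 1 to 8, 2 of 10 were called in MII oocytes (Gm28438 and Gm4076), beside 1838 in all (160 higher). Gm28437 was not called and had −0.25. Calls were 7 of 10 and 436 in all in DNMT3L-ADD, 10 and 714 in DNMT3A-ADD and 0 and 120 in the double mutant. The same libraries without the block gave 2 of 10 and 1906 (157 higher) in MII oocytes, with Gm28437 at −0.27. In the mutants, in the same order, they gave 7 and 615, 10 and 791, and 0 and 110. The settings without 1 library and the unblocked fit of replicates 1 to 8 were chosen after seeing the data. Depth did not limit these genes, whose lowest count was 200.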
